A study of Mus musculus with 6 samples.

Results

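The comparison described here sets 1 RNA library of dental epithelial organoids (DEOs) grown with the Notch pathway blocker dibenzazepine (+ND) against 1 library grown without it (+N), that is, 2 of the 6 samples of the series. The members were these 2 libraries as the labels name them, and all genes were compared between them. Both cultures came from the apical buds of incisors of 9-week-old wild-type female C57BL/6J mice, the tissue at the growing end of the tooth where adult dental epithelial stem cells (aDESCs) reside. Dissociated cells were embedded in Matrigel and kept for 14 days with Wnt3a and R-spondin1 from conditioned media, EGF at 100 µg/ml, Noggin at 200 µg/ml, N-acetylcysteine and a ROCK inhibitor. The +ND medium also held dibenzazepine (DBZ), at 10 µM by the labels, while the methods text of the study writes the dose in another unit. Neither medium held FGF10, and the matching pair grown with FGF10 at 100 µg/ml, +NFD and +NF, is used only to give its values beside those of +ND and +N. Each medium is represented by a single culture, so the differences below have no replicate check and carry no p-value.

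Notch receptors are cut by γ-secretase after a ligand on a neighbouring cell has bound them, and the released intracellular part joins the DNA-binding protein Rbpj to switch on genes such as those of the Hes family. DBZ blocks γ-secretase, so the receptor can bind its ligand but passes on no signal. In stratified epithelia the pathway is best known for steering cells as they leave the basal layer, and in airway and gut epithelia for the choice between secretory cells and other fates.

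The values are the FPKM deposited by the authors, fragment numbers divided by transcript length and library size. Ratios are log2((FPKM + 1)/(FPKM + 1)) of +ND over +N, restricted to genes that reach 1 FPKM in whichever of the 2 libraries is higher. This scale understates the change of genes at low levels. A gene was counted as higher or lower at a ratio of 2-fold. By the smallest steps between low values, which correspond to single fragments, +ND had 0.795 times the depth of +N, and 12529 and 12628 genes reached an FPKM of 1 in +N and +ND. A gene listed at 0 is given against the FPKM that 3 fragments would have had, and this limit, like the 95% intervals from fragment numbers (Clopper-Pearson), covers counting error only. The most abundant entry in each library was the noncoding RNA BC037156, which lies next to the enamel gene Odam on chromosome 5 and was picked out after its values were seen. It took 15.6% of the summed FPKM in +N and 5.17% in +ND. Its transcript is short (430 nt), and its share of the estimated fragments was smaller, 3.34% in +N and 0.993% in +ND. Without it the summed FPKM was nearly equal, 632686 in +N and 637532 in +ND. The median log2 ratio over all genes was 0.10, which is the level that the ratios below should be read against.

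Of 13173 genes compared, 774 (5.88%) passed 2-fold upwards in +ND and 697 (5.29%) passed it downwards. The lists below are to be read against these shares. At any size of difference 58.2% of the genes had the higher FPKM in +ND. With ratios centred on their median the same counts were 615 and 842. With each library rescaled to the same summed FPKM, BC037156 included, they were 1223 and 641, so the balance between the directions follows the scaling. The strong changes were fewer. A 4-fold difference was reached by 181 genes higher in +ND and 188 lower, and a 16-fold difference by 56 and 36. Differences were found at every level of abundance. Among protein-coding genes with 1 to 5 FPKM in the higher library 5.96% were at least 2-fold higher and 4.90% lower, and among those above 100 FPKM 8.36% and 9.44%. Short RNAs behaved otherwise: of 104 genes whose longest transcript is under 300 nt, 38 were higher and 33 lower, and of these only Defb3 is named below. The high end of the list held genes of the cornified layer of skin.

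**Figure D1:**
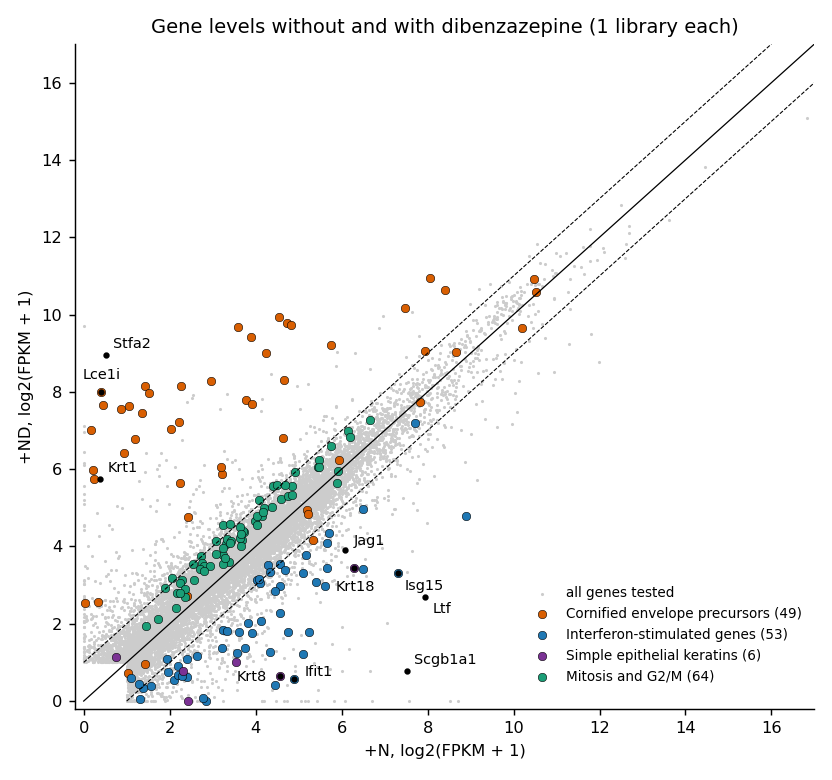
Level of each gene tested in +N (x axis) and +ND (y axis), both as log2(FPKM + 1), 1 library per axis; the solid line marks equal levels and the dashed lines 2-fold ratios. Cornified envelope precursors lie mainly above the upper dashed line, interferon-stimulated genes lie below the solid line, and genes of mitosis form a narrow band above it.

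The 10 highest ratios belonged to Stfa2, Sprr2b and 8 genes of the Lce family. Stfa2, which encodes a stefin, an inhibitor of cysteine proteases, was at 0.422 FPKM in +N and 494 in +ND, a log2 ratio of 8.44. Lce1i, which encodes a late cornified envelope protein, stood at 0.321 and 254 FPKM, and Lce3d at 11 and 814 FPKM. The 10 lowest ratios were those of Scgb1a1, Wfdc18, Nat8l, Ltf, Defb6, Enpp3, Crisp1, Prss33, Sftpd and Plb1. Ltf, the iron-binding defence protein lactoferrin, was at 246 FPKM in +N and 5.45 in +ND, a log2 ratio of -5.26. Nat8l, the enzyme that makes N-acetylaspartate, was at 99.8 and 0.712 FPKM. Sftpd, which encodes the lung collectin surfactant protein D, was at 24.1 FPKM in +N and listed at 0 in +ND, where 3 fragments correspond to 0.0760 FPKM, so it was at least 317-fold lower. All 20 of these genes differed in the same direction, by at least 2-fold, between +NFD and +NF.

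Genes of the Notch pathway itself differed by role. Of the receptors, Notch1 was level, at 11.3 FPKM in +N and 11.1 in +ND. Notch2 was at 10.9 and 5.14 FPKM, a log2 ratio of -0.95, and Notch3 at 23.4 and 7.90 FPKM, a log2 ratio of -1.45. Notch4, the receptor of endothelium, was under 1 FPKM in both libraries, at 0.812 and 0.202. Notch3 was the receptor gene past 2-fold.

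Among the ligands the direction was mixed. Jag1 was at 66.4 FPKM in +N and 14.0 in +ND, a log2 ratio of -2.17, whereas the other Jagged ligand, Jag2, was at 40.3 and 58.9 FPKM. Dll1 was at 8.10 and 15.4 FPKM and Dlk2, a relative of the ligands that does not activate the receptors in the usual way, at 1.94 and 7.92 FPKM, a log2 ratio of 1.60. Dlk1 stood at 0.845 and 1.4 FPKM. The ligands Dll3 and Dll4 and the related Dner did not reach 1 FPKM. Dll4 was the most unequal of them, with 0.495 FPKM in +N and 0.0121 in +ND.

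Genes that process the receptor or carry its signal changed little. Of 26 tested, 1 was at least 2-fold lower and 0 were 2-fold higher, and the median log2 ratio was -0.04. The exception was Furin, the protease that makes the first cut of the receptor, with 105 FPKM in +N and 48.4 in +ND. Of the γ-secretase subunits, Ncstn was at 97.7 and 49.8 FPKM, a log2 ratio of -0.96, while Psen2 at 2.92 and 2.39, Psenen at 199.9 and 173 and Aph1a at 88.1 and 83.0 FPKM were close. The other subunit genes Aph1b and Aph1c had log2 ratios of 0.14 and 0.17. Rbpj was at 13.8 FPKM in +N and 27.2 in +ND, a log2 ratio of 0.93 and the highest of the group, followed by the ubiquitin ligase genes Mib1 (0.75) and Fbxw7 (0.52). The ADAM proteases that make the second cut had log2 ratios of -0.05 (Adam10) and -0.38 (Adam17). Other genes lay between -0.40 for Numb and 0.34 for Itch, among them Numbl (-0.32), Mib2 (-0.27), Pofut1 (-0.38), Rfng (-0.07), Maml1 (-0.02), Spen (0.21), Maml2, Maml3, Poglut1 and Lfng (0.29 each). Mfng and Neurl3 were under 1 FPKM in both.

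Of 12 target genes of Notch listed, 5 passed the filter and all 5 had lower FPKM in +ND, where 41.8% of all genes did. Hes1, the repressor through which Notch acts in many tissues, was at 157 FPKM in +N and 74.6 in +ND, a log2 ratio of -1.06. Nrarp, a feedback inhibitor of the receptor complex, was at 18.2 and 2.80 FPKM, a log2 ratio of -2.34. Notch3, counted here again because it is itself a target, made the third gene past 2-fold. Hes6 (-0.77) and Bcl6 (-0.03) were not. Hes5 was listed at 0 in both libraries, as was Heyl, and Hey1, Hey2, Hes2, Hes7 and Dtx1 were under 1 FPKM in both, so most of the classical targets could not be compared. Dtx1 was the most unequal of these, at 0.490 and 0.0485 FPKM. The RefSeq promoter table held 8 of the 12 target genes but not Hes1. Within 250 bases before the start, the Rbpj motif GTGGGAA, on either strand, stood in 3 of those 8 (Hes5, Hes7 and Hey2) and in 6.18% of all promoters. These 3 are among the genes that could not be compared, and no match was found for Nrarp. The motif was in 6.56% of the genes at least 2-fold higher and in 7.39% of those at least 2-fold lower. Both are near the 6.49% of all genes tested.

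**Figure D2:**
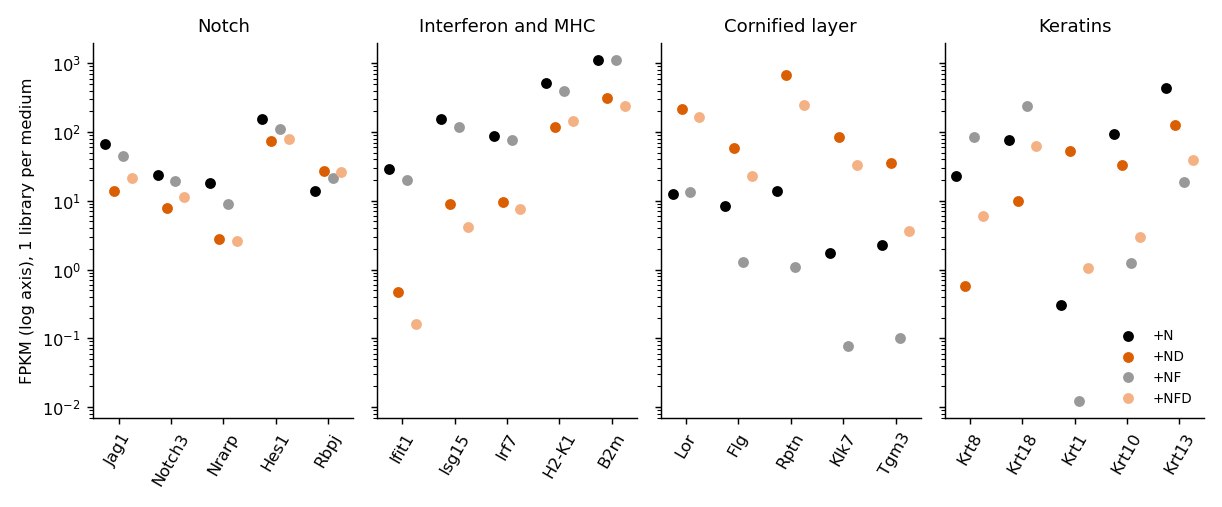
FPKM on a log axis of 20 named genes in the 4 media, 1 point per library. For the Notch genes Jag1, Notch3, Nrarp and Hes1, for the interferon and MHC genes and for Krt8 and Krt18 the points with DBZ (+ND and +NFD) lie below those without it, and for the cornified layer genes above; Krt10 and Krt13 are lower in +ND than in +N and higher in +NFD than in +NF.

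Proteins of the cornified envelope, the cross-linked shell that replaces the plasma membrane of dead surface keratinocytes, made the largest group at the high end. Of 52 precursor genes listed, 49 passed the filter, 37 had at least 2-fold more FPKM in +ND and 1 at least 2-fold less, with a median log2 ratio of 3.65. Their summed FPKM was 6186 in +N and 19653 in +ND. All 20 Lce genes tested were higher, with log2 ratios from 2.23 for Lce1m to 7.59 for Lce1i. Near-identical genes of this family can share fragments, so the sums are firmer than single genes. The Lce1 genes together were at 17.9 FPKM in +N and 2293 in +ND, and the Lce3 genes together at 156 and 4632 FPKM.

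Other envelope genes were spread more widely. Lor, which encodes loricrin, the main envelope protein of epidermis, was at 12.7 FPKM in +N and 219.6 in +ND. Rptn, the repetin gene, was at 13.8 and 681 FPKM, and Krtdap at 265 and 1982 FPKM. Flg, whose product bundles keratin, was at 8.36 and 58.1 FPKM. Hrnr, a filaggrin relative, was at 0.0242 and 4.85 FPKM. Ivl, the early envelope protein involucrin, stayed close, at 4.33 and 5.56 FPKM, as did Sprr1a at 1464 and 1535 FPKM and Sprr3 at 224 and 212. The plakins that first line the membrane were not higher: Ppl was at 35.4 and 29.7 FPKM, and Evpl, at 39.3 and 16.9 FPKM, was the gene at least 2-fold lower. Among the 11 Sprr2 genes 5 were at least 2-fold higher, led by Sprr2b at 0.116 and 128 FPKM. The sum of the 11 was 2128 and 4389 FPKM, most of it in +N from Sprr2d and Sprr2h, which differed little.

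The promoters of these genes fell into 2 kinds, and 3 are printed because they carry the motif of AP-1, a factor long tied to keratinocyte genes. The sequences are from RefSeq on GRCm38.p6, 5′ to 3′ on the strand of the gene, and cover the 160 bases before the start. Capitals mark the AP-1 motif as searched for, TGANTCA with any base at N, a pattern that covers both strands. The match in Rptn has T at N, and those in Lor and Krtdap have G.
Lor, chr3:92083143-92083302, minus strand: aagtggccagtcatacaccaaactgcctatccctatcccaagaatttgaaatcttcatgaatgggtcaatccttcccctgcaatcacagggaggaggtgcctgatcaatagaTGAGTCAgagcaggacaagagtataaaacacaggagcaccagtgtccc
Rptn, chr3:93393539-93393698, plus strand: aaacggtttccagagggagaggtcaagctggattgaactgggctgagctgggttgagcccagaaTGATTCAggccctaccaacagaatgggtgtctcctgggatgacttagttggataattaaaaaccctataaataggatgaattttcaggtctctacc
Krtdap, chr7:30787745-30787904, plus strand: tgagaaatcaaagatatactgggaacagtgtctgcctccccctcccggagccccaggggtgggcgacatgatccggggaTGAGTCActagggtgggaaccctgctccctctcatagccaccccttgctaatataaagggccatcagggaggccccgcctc
Within 250 bases before the start the motif stood in 18 of the 25 envelope genes outside the Lce family that matched the table (72%) and in 0 of 19 Lce genes, against 7.82% of all promoters. It was in 11.4% of the genes at least 2-fold higher and in 13.2% of those at least 2-fold lower. The Lce genes, which had the highest ratios, thus hold no match in this window, and genes with a match include the nearly level Ivl and Sprr1a.

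Envelope genes lie together on chromosome 3 in the epidermal differentiation complex. From 92000001 to 93000000 on GRCm38, 32 of 45 genes tested were at least 2-fold higher and 0 lower, and in the next 1 Mb 9 of 12 were. Of 52 protein-coding genes over the stretch drawn, 39 were at least 2-fold higher. The Lce block, 566 to 938 kb from Lor, was higher throughout, the Sprr block next to Lor was mixed, and the S100 genes that close the complex had ratios below 0, with -0.58 for S100a11 and -0.48 for S100a10.

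**Figure D3:**
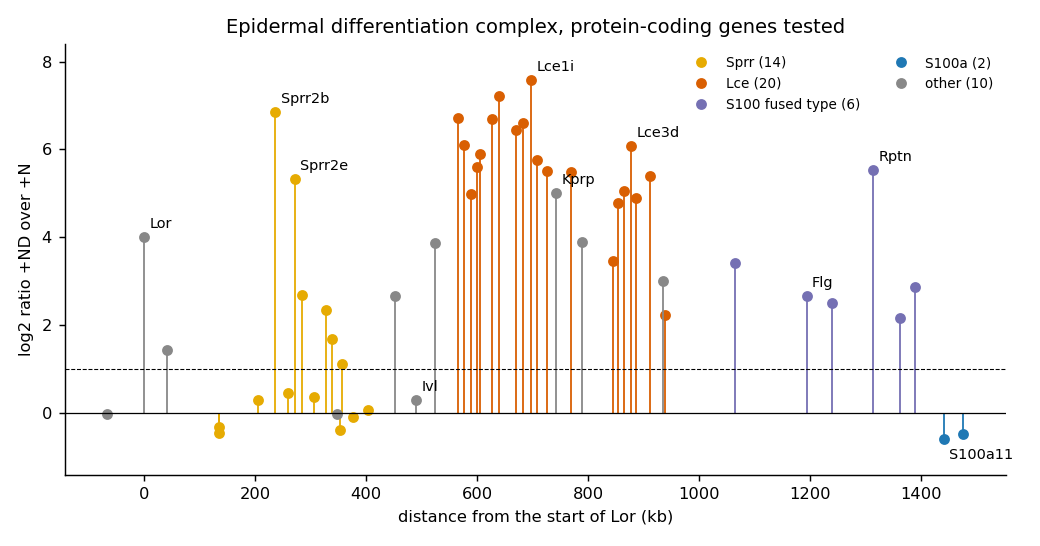
Log2 ratio of +ND over +N for the 52 protein-coding genes tested along the epidermal differentiation complex, against the distance of each gene start from that of Lor in kb; colours give the gene family and the dashed line a 2-fold ratio. Genes of the Lce block all lie above the line, while Sprr genes range from -0.45 to 6.86.

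The enzymes that assemble and shed the cornified layer followed in part. Of the transglutaminases that cross-link the envelope, Tgm3 was at 2.24 FPKM in +N and 35.7 in +ND and Tgm5 at 1.81 and 5.21, while Tgm1, the membrane-bound form, was level at 164 and 169 FPKM. Asprv1, a protease that trims filaggrin, was at 19.5 and 352 FPKM. Blmh, which breaks filaggrin down further, went the other way with 375 and 136 FPKM.

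Kallikreins, the serine proteases that cut the junctions between dead cells, were higher almost as a family. Of 10 Klk genes tested 9 were at least 2-fold higher, and their summed FPKM was 230.2 in +N and 997 in +ND. Klk7, the chymotrypsin-like enzyme of the stratum corneum, was at 1.75 and 84.6 FPKM. Klk5, which activates it, was listed at 0 in +N and at 7.71 FPKM in +ND, at least 87.4-fold higher by the 3-fragment limit. Among serine proteases of the membrane and their inhibitors the genes at least 2-fold lower included Prss27 at 43.9 and 4.95 FPKM, St14 (matriptase) at 79.0 and 35.3, and the inhibitors Spint1 at 133 and 43.4 and Spint2 at 876 and 431 FPKM. Over the whole list of 27 proteases and inhibitors 10 genes were higher and 6 lower.

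The stefin cluster on chromosome 16 was higher as a block, while inhibitors coded elsewhere were lower. Beside Stfa2, Stfa3 was at 4.27 and 211 FPKM, BC100530 at 4.70 and 227 FPKM and Csta1, at the edge of the cluster, at 47.2 and 164 FPKM. Cst3, Cstb and Cst6, which lie on other chromosomes, had log2 ratios of -1.32, -1.18 and -1.06. Of the 11 stefin and cystatin genes tested, 8 were thus higher and 3 lower, with none in between.

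Lipid enzymes of the skin barrier were higher in 10 of 29 genes and lower in 1, with a median log2 ratio of 0.26. The lipoxygenases that build the lipid envelope stood out, with Alox12b at 3.33 FPKM in +N and 65.7 in +ND and Aloxe3 at 0.406 and 11.3 FPKM. Elovl4, which lengthens fatty acids for barrier ceramides, was at 5.82 and 41.8 FPKM, and the lipid transporter Abca12 at 2.23 and 16.6 FPKM. Sptlc3, a subunit of the first enzyme of ceramide synthesis, was the exception, at 10.8 and 0.398 FPKM. Of 13 serpin B genes 3 were higher and 4 lower, from Serpinb1a (47.0 and 9.61 FPKM) to Serpinb12 (8.63 and 86.9 FPKM).

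Keratins of simple, 1-layered epithelium were lower: 5 of 6 tested were at least 2-fold lower, with a median log2 ratio of -2.47. Krt8 was at 22.8 FPKM in +N and 0.574 in +ND, its partner Krt18 at 76.7 and 9.90 FPKM, and Krt19 at 10.6 and 1.03 FPKM. Krt7 was at 3.99 and 0.706 FPKM. Krt20, a keratin of gut and bladder surface cells, was at 4.36 FPKM in +N and listed at 0 in +ND, at least 61.1-fold lower. Krt23, at 0.671 and 1.19 FPKM, was the member that was not lower.

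Suprabasal keratins did not move as a set, with 3 of 7 higher and 3 lower. Krt1, a keratin of the spinous layer of skin, was at 0.30 FPKM in +N and 52.2 in +ND, a 174-fold ratio with a 95% interval from 118 to 265. Krt10, the partner with which it forms filaments, was at 94.1 and 32.8 FPKM. The partners thus differed in opposite directions. Krt4 and Krt13, the pair of moist mucosa, were both lower, Krt4 at 69.0 and 9.98 and Krt13 at 435 and 129 FPKM. Krt78 was at 0.673 and 5.39 FPKM and Krt80 at 9.91 and 72.3. Keratins of stressed epidermis and of the hair follicle, added after their values were seen, also differed in both directions. Krt16 was at 1321 and 2909 FPKM, Krt17 at 954 and 1822 and Krt75 at 0.548 and 9.47. Krt6a, at 3943 and 2731 FPKM, and Krt6b, at 2462 and 1525, had log2 ratios of -0.53 and -0.69, short of 2-fold.

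Cell junction genes shifted in composition. No tight junction gene was at least 2-fold higher and 8 of 17 were lower, with a median log2 ratio of -0.98. Cldn3 was at 13.7 FPKM in +N and 1.22 in +ND, Cldn7 at 53.2 and 12.9 and Cldn4, the most abundant claudin, at 326 and 98.5 FPKM. Cldn1, the claudin of the epidermal granular layer, was at 41.5 and 71.6 FPKM. Among desmosomal genes 5 of 15 were higher and 0 lower. The 5 were Dsc1, at 2.39 and 55.3 FPKM, Cdsn at 9.14 and 247, Dsg1b at 7.54 and 31.2, Dsg1a at 4.55 and 18.8 and Dsc3 at 55.6 and 115 FPKM, whereas Dsg3 and Dsp, at log2 ratios of -0.15 and -0.24, were close. The first 4 of these are the forms of the upper layers of skin. In the same way the connexin genes Gjb2 (46.0 and 126 FPKM) and Gjb6 (4.53 and 15) were higher, and Gja1 (824 and 368) lower. Cdh1, which encodes E-cadherin, was at 163 and 68.0 FPKM, and the epithelial adhesion molecule Epcam at 122 and 54.8 FPKM. Genes of adhesion to the basement membrane were mostly near level, with 1 higher (Dst, 18.7 and 39.4 FPKM) and 1 lower (Krt14, 12652 and 5530 FPKM) of 19 and a median of 0.08. Those counts are near the shares over all genes, 5.88% and 5.29%. S100 genes were lower in 5 of 13 and higher in 1. S100a8 was at 4.96 and 28.9 FPKM, while S100a9, with which it forms the antimicrobial dimer calprotectin, was at 333 and 141 FPKM.

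**Figure D4:**
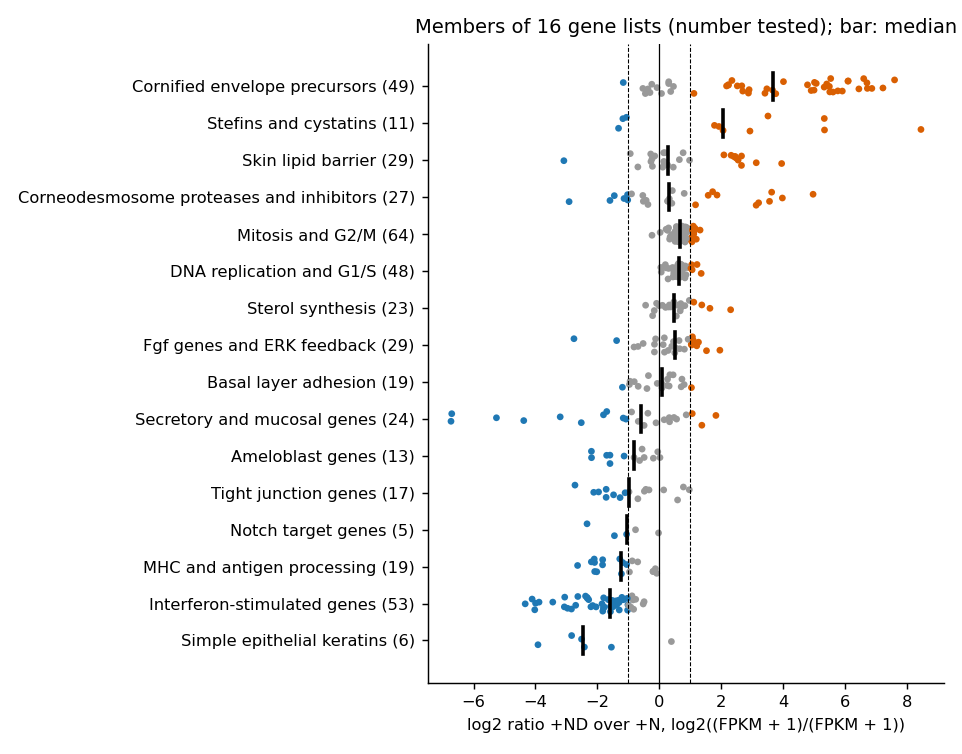
Log2 ratio of +ND over +N for the members tested of 16 gene lists, 1 point per gene; black bars are medians, dashed lines 2-fold ratios, and orange and blue points genes at least 2-fold higher or lower in +ND. Envelope precursors reach from -1.17 to 7.59, interferon-stimulated genes all lie below 0, and genes of mitosis and replication reach up to 1.35, with 1 gene below 0.

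Interferon-stimulated genes, which cells use to sense and restrict viruses, formed the largest group that was lower. All 53 listed genes tested had lower FPKM in +ND, 45 of them at least 2-fold, and the median log2 ratio was -1.58. The list was chosen with earlier results of these data known, and related genes outside it were not all lower. Grouped by symbol, 7 of 9 Oas genes tested were at least 2-fold lower, but the highest log2 ratio was 0.76. Of 13 Isg and Ifi genes 7 were at least 2-fold lower, and the highest log2 ratio was 0.64. Their summed FPKM was 1848 in +N and 419 in +ND. Ifit1, which binds viral RNA, was at 28.8 FPKM in +N and 0.478 in +ND. Isg15, a ubiquitin-like modifier, was at 157 and 8.87 FPKM, and Ifi27l2a at 476 and 26.7 FPKM. The regulators of the response moved with it. Irf7 was at 88.9 and 9.71 FPKM, and Stat2 and Irf9, which help carry the signal of type I interferon, both had log2 ratios of -1.58. Of the receptors, looked up after these values were seen, Ifngr1 was at 135 and 35.8 FPKM, and Ifnar1, Ifnar2, Ifngr2 and Ifnlr1 had log2 ratios from -0.47 to -0.03. The members nearest 0 on this scale were Cxcl10 (-0.49), Ifi27 (-0.52) and Tap2 (-0.76). Cxcl10, at 1.15 and 0.525 FPKM, was at a level where the scale understates the change.

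Promoters of these genes are known for the interferon-stimulated response element (ISRE), and 4 are printed to show it. They are from RefSeq on GRCm38.p6, 5′ to 3′ on the strand of the gene, for the 160 bases before the start. Capitals mark GAAA, any 2 bases and GAAA again, or TTTC, any 2 bases and TTTC where the motif lies on the other strand, and overlapping matches run together.
Isg15, chr4:156200819-156200978, minus strand: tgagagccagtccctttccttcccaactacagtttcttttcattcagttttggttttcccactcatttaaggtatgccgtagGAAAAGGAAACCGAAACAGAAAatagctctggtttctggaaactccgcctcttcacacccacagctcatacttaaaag
Ifit1, chr19:34640729-34640888, plus strand: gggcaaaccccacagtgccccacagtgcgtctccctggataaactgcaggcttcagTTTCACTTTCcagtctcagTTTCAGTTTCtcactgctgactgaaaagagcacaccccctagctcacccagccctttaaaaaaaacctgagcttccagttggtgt
Ifit3, chr19:34583369-34583528, plus strand: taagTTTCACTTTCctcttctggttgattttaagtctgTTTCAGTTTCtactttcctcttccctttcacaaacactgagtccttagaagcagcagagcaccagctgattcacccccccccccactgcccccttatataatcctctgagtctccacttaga
B2m, chr2:122147527-122147686, plus strand: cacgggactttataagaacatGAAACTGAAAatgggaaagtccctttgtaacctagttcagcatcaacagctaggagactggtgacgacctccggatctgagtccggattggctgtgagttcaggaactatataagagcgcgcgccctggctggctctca
Isg15 holds 3 overlapping matches, Ifit1 and Ifit3 hold 2 each and B2m holds 1. Within 250 bases before the start a match stood in 18 of the 40 interferon-stimulated genes found in the table (45%), in 3.46% of all promoters, in 10.2% of the genes at least 2-fold lower and in 2.32% of those at least 2-fold higher. The 18 genes with a match had a median log2 ratio of -1.73 and the 22 without one -1.44.

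Antigen presentation followed the interferon-stimulated genes, with which it shares several regulators. All 19 genes tested were lower and 12 were at least 2-fold lower, with a median log2 ratio of -1.23. The class I heavy chains H2-K1 and H2-D1 were at 512 and 120 FPKM and at 641 and 157 FPKM, and their light chain B2m was at 1112 and 311 FPKM. Among class II genes H2-Ab1 was at 85.3 and 35.9 FPKM, and its chaperone Cd74 at 5.61 and 0.441. H2-DMa and H2-Eb1, at log2 ratios of -0.09 and -0.13, were close. Macrophages, which carry many of these transcripts, were checked by 10 markers, with 0 at least 2-fold higher and 1 lower, and with a sum of 677 FPKM in +N and 536 in +ND. Of these, Cd68, Adgre1 and Mrc1 had log2 ratios of 0.60, 0.58 and 0.59, and Aif1 was at 48.7 and 10.9 FPKM. Their part in the result was not tested.

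Cytokine genes split, with 10 of 33 higher and 9 lower. The neutrophil-attracting chemokines Cxcl5, Cxcl3, Cxcl1 and Cxcl2, neighbours on chromosome 5, were all lower. Cxcl5 was at 1955 FPKM in +N and 361 in +ND, and Cxcl3 at 996 and 142. The growth factors of myeloid cells Csf3 (28.2 and 1.55 FPKM) and Csf2 (6.25 and 0.297) and the alarmin Il33 (94.3 and 8.45) were lower as well. On the other side stood Tslp, an epithelial cytokine of allergic inflammation, at 2.37 and 67.4 FPKM, and the skin members of the interleukin-1 family Il1f5 at 3.9 and 107, Il1f6 at 2.27 and 62.6 and Il1f9 at 117 and 249 FPKM.

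Secretory and mucosal genes included 3 of the 10 lowest ratios, those of Scgb1a1, Wfdc18 and Ltf. Of 55 listed only 24 passed the filter, 10 of them at least 2-fold lower and 3 higher, and the median log2 ratio was -0.59. Scgb1a1, the secretoglobin of airway club cells, was at 181 FPKM in +N and 0.721 in +ND. Wfdc18, a small secreted inhibitor, was at 103 FPKM in +N and listed at 0 in +ND, where 3 fragments correspond to 0.150 FPKM, so it was at least 688-fold lower. The membrane protein Ly6d was at 4046 and 439 FPKM and Wfdc2 at 332 and 94.3. The β-defensin gene Defb3, looked up after its values were seen, was at 570 and 52.0 FPKM, although its transcript is under 300 nt. The genes that were higher were Slc12a2, a chloride transporter, at 5.37 and 21.6 FPKM, and Spdef (0.370 and 2.54) and Agr2 (0.315 and 1.74), both of mucous cells. The defining airway markers Scgb3a1, Scgb3a2, Bpifa1, Bpifb1 and Cyp2f2 were under 1 FPKM in both libraries. Of the same marker list, Cbr2 was at 1123 and 1041 FPKM and Aqp5 at 0.991 and 1.92. Of markers of multiciliated cells only Rsph1 passed the filter, at 1.65 and 1.89 FPKM.

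Genes of cell division were higher as a whole, mostly by less than 2-fold. All 48 genes of DNA replication and entry into S phase were higher in +ND, 5 of them at least 2-fold, with a median log2 ratio of 0.62. Rfc2, at 44.3 and 45.8 FPKM, had the smallest ratio, 0.05, which lies under the median of all genes. Of 64 genes of mitosis 63 were higher and 11 at least 2-fold higher, with a median of 0.68. Ccne2, a cyclin of S phase entry, was at 3.23 FPKM in +N and 9.78 in +ND, Ccna2 at 20.2 and 46.2, Ccnb1 at 21.7 and 47.5 and the mitotic topoisomerase Top2a at 29.3 and 60 FPKM. Pttg1, the securin gene, was the gene of mitosis that was lower, at 58.1 and 49.1 FPKM. Among cyclins and inhibitors outside these lists Rb1 was at 7.54 and 21 FPKM, while the inhibitors Cdkn2b (65.0 and 26.4) and Cdkn2a (33.8 and 16.2) were lower. Ccnd1, the cyclin of the G1 phase, was at 188 and 113 FPKM, short of 2-fold. Replication-dependent and other histone genes, a symbol family examined after its values were seen, did not follow the division genes. Of 17 tested, 5 were at least 2-fold lower and 0 higher, and the 17 summed to 239 and 134 FPKM. How well the libraries captured histone transcripts was not tested, so these values may not follow their expression. In bulk libraries more cells of a kind and more RNA per cell cannot be told apart.

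Signals of other pathways were changed gene by gene. Among Fgf genes and targets of ERK 9 of 29 were higher and 2 lower, in media without added FGF10. Fgfr2, which encodes the receptor for FGF10, was at 28.2 FPKM in +N and 82.8 in +ND, Fgfr1 at 16.5 and 35.6 and Fgfr3 at 12.9 and 27.4. The ligand Fgf22 was at 0.125 and 3.35 FPKM and Fgf1 at 10.0 and 0.631. The ERK-dependent factors Etv4 (22.8 and 48.0 FPKM) and Etv5 (4.38 and 10.5) were higher, whereas Etv1 (7.94 and 2.43), Dusp4 (54.5 and 33.4) and Spry2 (9.51 and 8.41) were not. Of the Egf family, the ligands Epgn (0.683 and 13.6 FPKM), Nrg1 (7.43 and 32.8) and Ereg (1.55 and 8.67) were higher and no gene of 14 was 2-fold lower, though the receptors Egfr (17.6 and 9.07) and Erbb2 (36.1 and 18.1) came near. Of AP-1 and other immediate early genes 5 of 23 were higher and 1 lower, against 5.88% and 5.29% of all genes. The AP-1 subunit Fosl1 was at 8.17 and 20.2 FPKM, while Jun, Junb and Fos had log2 ratios of -0.77, -0.65 and -0.05.

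Of Bmp and Tgf-β genes 5 of 32 were higher and 2 lower, the latter near the share over all genes, 5.29%. Sostdc1, an inhibitor of Bmp and Wnt known from the dental epithelium, was at 8.33 FPKM in +N and 42.1 in +ND, and Bmp4 at 5.04 and 11.3. The Bmp targets Id1 to Id4 were all lower but short of 2-fold, with log2 ratios from -0.96 to -0.82. Of 27 Wnt receptors and targets 3 were higher and 2 lower, against 5.88% and 5.29% of all genes. Sfrp1 was at 0.270 and 4.44 FPKM and Apcdd1 at 1.41 and 7.82, both inhibitors of Wnt, while Lgr6, a receptor for R-spondin, was at 52.0 and 19.2 FPKM. Of 12 Wnt ligands Wnt11 was at 45.4 and 7.71 FPKM, and Wnt3a, Wnt16 and Wnt7a were higher. None of 8 Hedgehog genes reached 2-fold. Edaradd, the adaptor of the ectodysplasin receptor, was the 1 of 5 genes of that pathway past 2-fold, at 0.589 and 3.48 FPKM.

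Transcription factors of stratification differed in both directions. Of 44 tested 4 were at least 2-fold higher, namely Ovol1 (11.7 and 35.1 FPKM), Sox7 (7.0 and 19.9), Klf4 (27.6 and 68.2) and Maf (10.7 and 22.8), and 7 lower. The lower ones included Zfp750, at 28.7 and 9.04 FPKM, known for its role in forming the epidermal barrier, and Ehf at 134 and 63.3 FPKM. Trp63, the master gene of stratified epithelium, was at 88.5 and 166 FPKM, a log2 ratio of 0.90. In the dental list Sox9 was at 21.4 and 1.45 FPKM, Nkx2-3 at 63.2 and 14.9 and Runx2 at 56.0 and 26.9, and Msx2 (10.3 and 30.0) and Dlx5 (1.38 and 3.86) were higher.

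The dental character given by the labels was checked in both libraries. Odam, a protein of the enamel organ, was at 6221 FPKM in +N and 2824 in +ND. Among 13 ameloblast genes that passed the filter 6 were at least 2-fold lower and 0 higher, with a median log2 ratio of -0.82. Fam20a, and Fam20c, which encodes a kinase of enamel proteins, were at 111 and 36.1 FPKM and at 109 and 32.7. Wdr72 (3.86 and 0.0630) and Car2 (10.3 and 1.49), both of enamel maturation, were lower too. The genes of the enamel matrix Amelx, Ambn and Enam and the proteases Mmp20 and Klk4 were under 1 FPKM in both libraries. Enam and Mmp20 were listed at 0, while Ambn, at 0.340 and 0.139 FPKM, and Amelx, at 0.269 and 0.272, rested on a few fragments above the 3-fragment limit. Endothelial markers (summed to 0.166 and 0.326 FPKM), mast cell and melanocyte or Schwann cell markers were near 0. Mesenchymal markers were present, with 2 of 11 at least 2-fold higher, Prrx1 (2.08 and 8.46 FPKM) and Twist2 (0.744 and 2.79). The share over all genes was 5.88%. The median log2 ratio of the 11 was 0.47, that of Vim. Thy1 (0.0769 and 1.04 FPKM), Pdgfra (0.675 and 1.698) and Pdgfrb (1.299 and 2.792) were at levels where the scale understates the change. Their log2 ratios were 0.92, 0.69 and 0.72. The collagen genes Col1a1 (74.3 and 54.5) and Col3a1 (20.8 and 12.3) had log2 ratios of -0.44 and -0.71. Those of Col1a2 and Dcn were -0.02 and -0.07. Most of the sum of the list, 173 FPKM in +N and 164 in +ND, came from collagens. Collagen and matrix genes were higher in 5 of 38 and lower in 4, against 5.88% and 5.29% of all genes.

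Metabolic genes showed smaller shifts. Of 23 sterol synthesis genes 4 were at least 2-fold higher and 0 lower, with a median of 0.47, among them Dhcr7 (11.9 and 39.0 FPKM) and Idi1 (56.1 and 146). In fatty acid synthesis Elovl6 (5.22 and 18.6 FPKM), Fads1 (8.07 and 21.2) and Fads2 (20.3 and 50.0) were higher, and the lipid-binding Fabp4 (149 and 30.5) and Plin2 (53.7 and 22) lower. Glycolysis genes were level but for the glucose transporter Slc2a1, at 197 and 410 FPKM, and Pfkfb4, at 2.66 and 8.83. Of 36 genes that respond to foreign compounds or oxidants 10 were higher and 5 lower. Cyp1a1, the standard target of the aryl hydrocarbon receptor, was listed at 0 in +N and at 2.08 FPKM in +ND, at least 51.2-fold higher. Nqo1 was at 100.1 and 388 FPKM, the cystine transporter Slc7a11 at 8.63 and 44.4 and Gclm at 181 and 478, but Gclc, the partner subunit of Gclm, was at 43.6 and 19.0, and the retinoic acid enzymes Aldh1a1 (24.3 and 1.15) and Aldh1a3 (149 and 55.3) were lower. Asns (22.5 and 76.7 FPKM) and Chac1 (3.35 and 10.4) were the 2 of 25 genes of the unfolded protein response that were at least 2-fold higher, and its chaperone Hspa5 was at 303 and 414 FPKM. Over all genes 5.88% were at least 2-fold higher. Matrix proteases were higher in 5 of 19 genes, led by Mmp1b (0.605 and 5.00 FPKM), Mmp3 (16.7 and 54.7), Plat (4.0 and 13.6) and Mmp10 (17.2 and 49.1), while Mmp9 (176 and 84.0) and Plaur (14.0 and 6.39) were lower.

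Grouping all genes by the letters of their symbols or by position brought up the groups above and a few more. Of the symbol families with at least 8 genes tested, those with over 40% of members at least 2-fold higher were Lce (20 of 20), Klk (9 of 10), Sprr (7 of 15), Pla (5 of 11) and Snhg (5 of 12), and those with over 40% lower were Ifi (6 of 10), Cldn (5 of 9) and Prss (5 of 12). The Pla genes were led by Pla2g4d, a skin phospholipase A2, with 0.0165 FPKM in +N and 10.2 in +ND. The Snhg genes, noncoding RNAs that host small nucleolar RNAs, included Snhg1 at 55.3 and 114 FPKM and Snhg6 at 35.9 and 87.9. Of 997 windows of 1 Mb with at least 5 genes tested, 20 had over 40% of genes past 2-fold in a direction. Some of the 20 passed on few genes, such as 3 of 6 higher on chromosome 16 (14000001 to 15000000) and 3 of 6 lower on chromosome 4 (47000001 to 48000000). On the high side the windows held the epidermal differentiation complex, the Klk cluster on chromosome 7 (43000001 to 44000000, 12 of 20 genes) and the stefins on chromosome 16 (36000001 to 37000000, 9 of 16). On the low side they held the Ifit genes on chromosome 19 (34000001 to 35000000, 8 of 18), the Oas genes (120000001 to 121000000, 7 of 15) and the Cxcl genes (90000001 to 91000000, 6 of 11) on chromosome 5, the Trim genes on chromosome 7 (104000001 to 105000000, 5 of 6) and, on chromosome 4 (115000001 to 116000000, 6 of 14), the Cyp4a genes, led by Cyp4a31 at 21.7 and 3.98 FPKM.

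The same inhibitor in media with FGF10 gave another pair, which shares no library with the first. Between +NFD and +NF 497 of 13349 genes were at least 2-fold higher (3.72%) and 359 lower (2.69%). Several groups went the same way in both pairs. Over the members that passed the filter in both pairs, 46 envelope precursors had a median log2 ratio of 3.88 without FGF10 and 4.11 with it and 52 interferon-stimulated genes -1.58 and -1.65, and all 20 Lce genes and 10 of 10 Klk genes were at least 2-fold higher with FGF10. As sums, the Lce genes had log2 ratios of 5.30 without FGF10 and 7.93 with it. Those of the Klk genes were 2.11 and 3.45. Other groups were nearer level with FGF10. Genes of mitosis had medians of 0.68 and -0.17, with 11 and 0 of 64 at least 2-fold higher. Genes of replication had medians of 0.62 and 0.08. The Snhg family had 5 of 12 higher in the first pair and 0 in the second. Jag1, with 44.4 FPKM in +NF and 21.5 in +NFD, and Nrarp, with 9.12 and 2.60 FPKM there, were lower in both pairs, whereas Hes6 was lower in the first pair alone, at 43.7 and 46.0 FPKM in the second. Markers of mesenchyme moved with the FGF10 pair: over 11 markers the median was 0.47 without FGF10 and 2.09 with it, and Vim had log2 ratios of 0.47 and 2.48, Col3a1 of -0.71 and 2.89 and Thy1 of 0.92 and 3.19. Their part in the values of that pair was not tested. Whether the ratios differ between the pairs was not tested, since each rests on 1 library per medium.

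**Figure D5:**
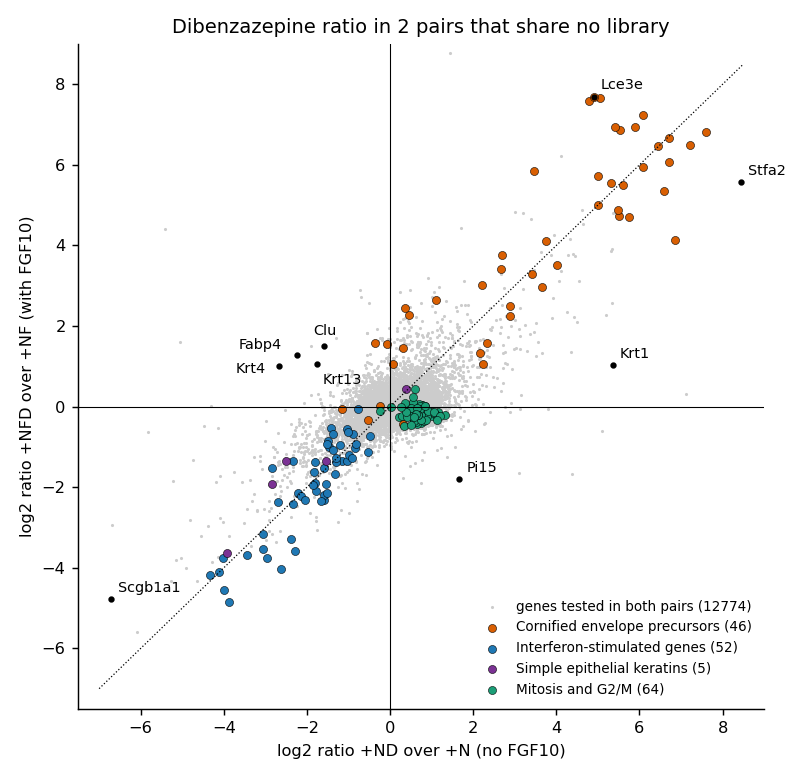
Log2 ratio of +ND over +N (x axis) against that of +NFD over +NF (y axis) for the 12774 genes tested in both pairs, which share no library; the dotted line marks equal ratios. Envelope precursors and interferon-stimulated genes lie along the dotted line, genes of mitosis lie right of 0 and around or below 0 on the y axis, and Krt4, Krt13, Clu and Fabp4 lie in the upper left.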

How the data were processed

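RNA was sequenced from 6 DEO samples, 1 per medium, and 4 of them (+N, +ND, +NF and +NFD) were used here. The authors trimmed reads with Trim Galore 0.6.5, checked them with FastQC 0.11.9, aligned them with TopHat2 2.1.1 to the mouse genome GRCm38 and computed FPKM with Cufflinks. The deposited table holds FPKM per gene, already normalized for length and library size, with no fragment numbers. Its 47493 entries were summed by symbol to 47360 genes. The numbering in the table runs beyond its number of entries, so all counts and list memberships refer to the entries used here. Coordinates and transcript lengths came from GENCODE M21 (47080 identifiers matched). A pseudocount of 1 was added, genes needed an FPKM of 1 in the higher library, and no test was run, since each medium has 1 library. Fragment numbers behind the intervals and limits were estimated from the steps between low values. On simulated data the recovery of a known relative depth was tested, but not that of the fragment numbers of single genes. Named genes were the 10 highest and 10 lowest ratios among genes with at least 5 FPKM in the higher library, a transcript of at least 300 nt and a symbol that is no predicted model, all Notch genes, and in other lists the 4 highest and 4 lowest plus members needed to describe the list. Some genes that this rule names are not reported here. The members and the 54 lists (1237 genes) were chosen with earlier results of these data known. Alternatives were other pseudocounts, filters and scalings. The rescaling without BC037156 was chosen after seeing the data. Scripts ran in Python 3.11.15 (scipy 1.17.1, pandas 2.3.3, numpy 2.4.6), with plots from matplotlib 3.10.9.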

Additional observations from a re-analysis of the deposited data

Results flagged for a closer look

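A few results had opposite signs in the pairs without and with FGF10, where each pair gives 1 ratio per gene. With 1 library per medium the difference between the pairs was not tested.

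The mucosal keratin genes Krt4 and Krt13 had log2 ratios of -2.67 and -1.75 without FGF10 and 1.01 and 1.06 with it. The lipid-binding gene Fabp4 was at -2.25 and 1.29, and Clu, the gene of the secreted chaperone clusterin, at -1.58 and 1.5. Pi15 was at 1.67 without FGF10 and -1.80 with it. Clu and Pi15 were picked out after their values were seen. Among the lists, the median of genes of mitosis was 0.68 without FGF10 and -0.17 with it, over the same 64 genes. The medians of ameloblast genes (-0.82 and 0.12) and of the markers of dental epithelium (-0.75 and 0.36) came from different members, since 19 ameloblast genes and 10 markers passed the filter with FGF10 against 13 and 5 without it, some of them through +NFD alone. Over the 13 and 5 members that passed in both pairs the medians were -0.82 and -0.40 and -0.75 and -0.08, so the opposite signs were not seen among shared members.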

How the results depend on the processing

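No paired analysis was possible because each medium has 1 library, so no replicate could be left out either. The number of genes at least 2-fold higher, 774 as reported, was 1212 with a pseudocount of 0.1, 1222 with no pseudocount and 1223 with each library rescaled to the same sum. The windows with over 40% of genes past 2-fold, 20 as reported, numbered 31 with no pseudocount, 8 with no filter, 13 with a filter at an FPKM of 5 and 12 with the rescaling that left out the fragments of BC037156. Of the 20 genes at the ends of the ranking, 13 could be counted as 2-fold in the same direction with FGF10 when no pseudocount was used, since a ratio with a 0 has no value there. Of 216 named genes past 2-fold, 0 changed sign under any alternative and 32 came under 2-fold in at least 1. The depth limits genes at low levels, where few fragments stand behind an FPKM near 1.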
